A study of Mus musculus with 8 samples.

Results

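The genes described here are 52 genes of mitosis and the kinetochore, the protein assembly that ties a chromosome to the spindle. They were chosen by name: mitotic cyclins and kinases, checkpoint and kinetochore proteins, kinesins, cytokinesis factors and condensin subunits. A gene was read through a probe set that carries its symbol alone in the platform's annotation, and where it had several such probe sets the brightest was used. This gave 51 of the 52 members among 19938 genes measured. Cyclin B1 (Ccnb1) is not analysed here.

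The cells were Lin- c-Kit+ Sca-1+ cells (KLS cells), the bone marrow fraction enriched for blood stem cells and early progenitors, from C57Bl/6 mice. In the group labelled KLF7 (4 arrays), c-Kit+ cells had been transduced with a lentivirus expressing KLF7, a zinc finger transcription factor of the Krüppel-like family. In the group labelled control (4 arrays), they had received a control virus. All cells had thus been transduced, kept for 72 hours and sorted again as KLS cells, and the RNA of each sort was amplified before it was hybridised. The labels do not tie the arrays to cultures or mice, so a p-value here speaks only of array-to-array spread, possibly technical, and the number of arrays limits the precision. Levels are given as log2 of the deposited intensity, and differences as KLF7 minus control on that scale, where 1 is a 2-fold change.

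Dividing cells transcribe most of these genes late in the cycle, in G2 and mitosis, and shut them off in quiescence. CDK1 with cyclins A and B drives entry into mitosis, Polo-like and Aurora kinases build the spindle, and the spindle assembly checkpoint holds the anaphase-promoting complex back until every kinetochore is attached. That complex then destroys securin and cyclin B, separase opens the cohesin rings, and the cell divides. Long-lived blood stem cells are mostly quiescent in the marrow, while progenitors and stem cells placed in culture cycle. A bulk level therefore mixes the share of cells in mitosis with the RNA per such cell, and fewer cells of a stage and less RNA per cell cannot be told apart here.

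Klf7, read by probe set 10355141, checked the labels. It lay at 11.43, 10.19, 11.05 and 10.52 on KLF7 arrays 1 to 4, against 8.53, 10.28, 9.35 and 7.98 on control arrays 1 to 4. The groups overlapped, because control array 2 was above KLF7 array 2, and both are therefore named by their labels. The difference was 1.76 log2 (SE 0.46), 3.39-fold, and did not pass in limma (adjusted p 0.327). The exact permutation test over the arrays, two-sided, gave p = 0.0571 where 0.0286 is the smallest it can give. The arrays numbered 4 had the lowest median over all genes in their groups. Of the markers of the sorted cells, 6 of 8 were measured and their mean level was 8.18 to 8.58 on KLF7 arrays and 7.93 to 8.50 on control arrays, where the median gene lay between 5.77 and 5.85. Ly6a, which encodes Sca-1, is not analysed here. The arrays numbered 4 stood apart in these markers, in both directions. Kit was at 7.85 on KLF7 array 4, against 9.96 to 10.52 on the other KLF7 arrays. On control array 4 it was at 8.33, against 9.57 to 9.85 on the other control arrays. Gata2 was at 8.41 on KLF7 array 4 and 8.39 on control array 4, against 9.99 to 11.21 on the other 6. Cd34, Flt3, Meis1 and Slamf1 were instead highest in their groups on the arrays numbered 4. Cd34 was at 10.71 on KLF7 array 4 and 10.95 on control array 4, and Flt3 at 8.29 and 8.93. Meis1 was at 8.60 and 8.78 there, and Slamf1 at 5.19 and 5.60. Slamf1 lay below the median gene on every array. The means of the T and NK cell and B cell markers lay below that median on every array, but not every marker did. Nkg7, at 7.06 to 9.73, was above the median gene on every array. Cd79b, at 5.48 to 7.15, was above it on all but KLF7 arrays 1 and 3. The other markers measured in these lists lay below it, save Cd3e on KLF7 array 1 (5.91). The 7 markers of monocytes, macrophages and dendritic cells were all higher in the mean on KLF7 arrays (list mean 8.93 to 10.13, against 7.68 to 9.05 on control arrays; 0 past the adjusted test and 6 of 7 with an unadjusted p under 0.05, beside 4.65% of all genes in that direction).

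The mitotic genes were well expressed in both groups, and their mean differences were small. Their mean levels ran from 6.47 (Spc25) to 9.81 (Top2a), all within the brighter part of the array: the dimmest member stood at the 61.4th percentile of all genes. In 34 members the mean was lower on KLF7 arrays and in 17 it was higher, with a median difference of -0.14 log2, against a median of 0.0019 over all genes and -0.0092 over the brighter 50% of genes. Lower means made up 66.7% of the members, against 49.6% of all genes and 51.3% of the brighter ones. The median was -0.08 without KLF7 array 1 or KLF7 array 3, -0.09 without control array 3, -0.19 without both arrays numbered 4 and -0.15 without both arrays numbered 2. The differences ran from -0.55 (Cdc25c) to 0.63 (Birc5).

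No member passed the test, nor did any other gene in the fit with group alone. With a term for the arrays numbered 4, 26 genes passed, of which 0 were members. In limma with Benjamini-Hochberg adjustment over all genes, 0 of 51 members had an adjusted p under 0.05, against 0% of the 19938 genes, and the smallest among the members was 0.481. At an unadjusted p under 0.05 stood 3 members with lower means (Ncapd2, Espl1 and Cdc25c), beside 3.56% of all genes in that direction, and 1 with a higher mean (Birc5), beside 4.65% of all genes. For 3 of 51 and 1 of 51 these shares are near the background. Those 4 members became 0 once both arrays numbered 2 were dropped, which was chosen after seeing the data and leaves fewer arrays. The count was 1 without control array 1 and 2 without KLF7 array 2 or control array 2 alone. Dropping other single arrays could also raise it, as the range at the end shows. All 4 KLF7 arrays lay below all 4 control arrays for 4 members, Ncapd2, Espl1, Incenp and Top2a (beside 2.38% of all genes). They lay above them for none (beside 2.83% of all genes). For Top2a this held on its brighter probe set only. The share of 4 in 51 is larger than over all genes, which was not tested. The count of 4 was 2 when the values were quantile normalised again, and 7 without both arrays numbered 2 and 9 without both arrays numbered 4, where groups of 3 separate more easily.

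The 95% intervals, taken gene by gene and not adjusted, rest on the spread between arrays, which may be technical. For 47 of 51 members the interval lay between a 2-fold decrease and a 2-fold increase, and the median interval reached 0.44 log2 to either side. The other 4 were Cdc25c and Cdc20, whose intervals passed a 2-fold decrease, and Birc5 and Pttg1, whose intervals passed a 2-fold increase. Top2a was counted among the 47 by its brighter probe set, while its dimmer one differed by -1.06 (SE 0.40). The share of all genes within these limits was not counted. The plot of all 51 differences shows that most intervals cross 0.

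**Figure D1:**
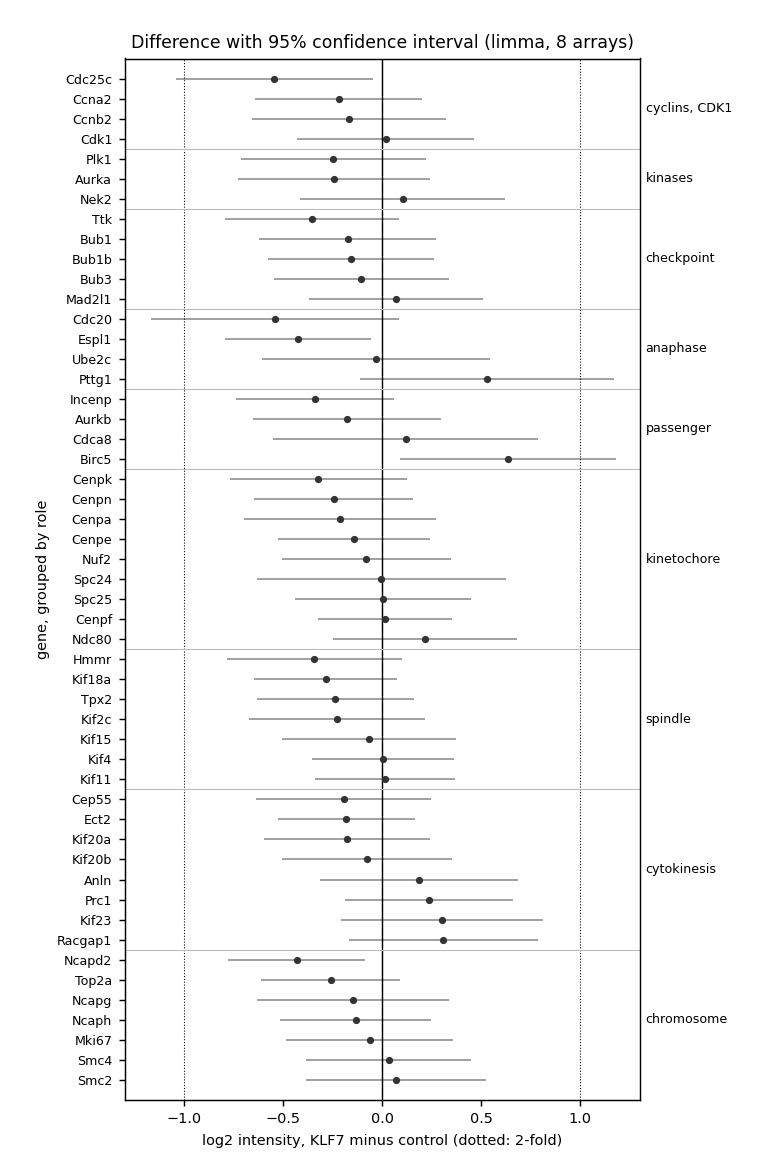
Difference in log2 intensity, KLF7 minus control, for the 51 members grouped by role, with points for the estimate and bars for the 95% confidence interval in limma (4 arrays a group). Points run from -0.55 (Cdc25c) to 0.63 (Birc5), and 47 of the 51 intervals lie within the dotted lines of a 2-fold change.

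The promoters of these genes share short sequences that the choice by name did not use. Many mitotic promoters carry a cell cycle homology element, TTTGAA or TTTAAA, which the LIN54 subunit of the DREAM and MuvB complexes binds, and CCAAT boxes, which NF-Y binds. RefSeq promoter windows of GRCm38.p6, 250 bases before to 50 after the annotated start, were at hand for 43 of the 51 members. They are shown for Cdk1, Ccnb2 and Plk1, which act at entry into mitosis, and for Cdc20, Pttg1, Espl1, Birc5, Ncapd2 and Top2a, whose values are given further on, from 100 bases before to 50 after the start, 5′ to 3′ on the gene's strand. Capitals mark both forms of the element and the CCAAT box, on either strand, and the printed stretches of Pttg1 and Birc5 hold none. The annotated start used lies 1482 bases inside the outer bounds of Pttg1 and 514 inside those of Ncapd2, and at most 39 inside for the other 7, so that a promoter of a longer transcript is not covered for Pttg1 and Ncapd2. The windows lie for Cdk1 at chr10:69352863-69353012 on the minus strand, Ccnb2 at chr9:70421505-70421654 on the minus strand, Plk1 at chr7:122159335-122159484 on the plus strand, Cdc20 at chr4:118437294-118437443 on the minus strand, Pttg1 at chr11:43425932-43426081 on the minus strand, Espl1 at chr15:102296193-102296342 on the plus strand, Birc5 at chr11:117849137-117849286 on the plus strand, Ncapd2 at chr6:125191537-125191686 on the minus strand and Top2a at chr11:99024140-99024289 on the minus strand.
Cdk1: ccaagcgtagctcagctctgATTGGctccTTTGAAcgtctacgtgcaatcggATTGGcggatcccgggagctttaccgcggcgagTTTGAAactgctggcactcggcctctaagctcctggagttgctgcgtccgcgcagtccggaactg
Ccnb2: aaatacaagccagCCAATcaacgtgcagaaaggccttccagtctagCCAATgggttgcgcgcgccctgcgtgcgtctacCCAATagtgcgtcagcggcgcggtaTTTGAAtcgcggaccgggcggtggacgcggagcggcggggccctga
Plk1: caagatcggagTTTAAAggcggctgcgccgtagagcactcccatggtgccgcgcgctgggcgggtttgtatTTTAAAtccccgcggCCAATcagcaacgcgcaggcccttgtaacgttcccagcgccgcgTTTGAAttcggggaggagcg
Cdc20: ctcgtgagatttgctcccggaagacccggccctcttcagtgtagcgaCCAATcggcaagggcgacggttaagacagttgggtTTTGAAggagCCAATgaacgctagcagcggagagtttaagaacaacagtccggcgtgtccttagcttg
Pttg1: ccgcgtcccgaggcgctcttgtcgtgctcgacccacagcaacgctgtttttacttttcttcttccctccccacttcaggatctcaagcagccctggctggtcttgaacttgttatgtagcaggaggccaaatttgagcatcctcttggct
Espl1: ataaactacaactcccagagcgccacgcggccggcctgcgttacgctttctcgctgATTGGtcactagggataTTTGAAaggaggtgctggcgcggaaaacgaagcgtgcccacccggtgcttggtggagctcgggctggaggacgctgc
Birc5: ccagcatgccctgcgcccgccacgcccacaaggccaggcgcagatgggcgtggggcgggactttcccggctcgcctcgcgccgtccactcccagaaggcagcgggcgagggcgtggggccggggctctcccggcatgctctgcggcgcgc
Ncapd2: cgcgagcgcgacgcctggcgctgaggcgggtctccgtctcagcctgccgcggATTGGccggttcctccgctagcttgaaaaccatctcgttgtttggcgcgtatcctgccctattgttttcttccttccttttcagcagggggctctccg
Top2a: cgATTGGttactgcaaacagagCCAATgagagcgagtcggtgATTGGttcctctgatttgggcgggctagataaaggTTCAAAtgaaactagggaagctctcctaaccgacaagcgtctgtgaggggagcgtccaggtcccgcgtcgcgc

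Searched on both strands over the whole 300 bases, TTTGAA was found in the windows of 33 of 43 members (76.7%), against 17.3% of the 15563 measured genes with a window. CCAAT was found in 31 members (72.1%), against 41.7%, and both in the same window in 27 members (62.8%), against 6.89%. TTTAAA, which reads the same on both strands, was found in 8 members (18.6%, against 13.4%). Of the letters that Krüppel-like and Sp factors are known to bind, the GC box GGGCGGG was found in 26 members (60.5%, against 39.8%) and the CACCC box CCACACCC in 2 (4.65%, against 4.37%). No motif contains another, though neighbouring matches can share letters. The measured genes compared include dim ones, while every member lay in the brighter part of the array. Shares among brighter genes alone were not counted. A match of letters is a description and shows no binding.

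The TTTGAA matches of the members also lay close to the start. Of 47 matches, 35 (74.5%) began within 50 bases of it, against 23.2% of the 3247 matches of all measured genes, and some windows of a gene with several starts overlap. The CCAAT matches of the members lay further upstream than their TTTGAA matches, at a median of 68 bases before the start. Over all measured genes that median was 92 bases before it. Of 77 CCAAT matches of the members, 27 (35.1%) began within 50 bases of the start, against 26.5% for all measured genes. Members with and without TTTGAA in the window had close medians: the difference was -0.11 log2 for the 33 with it (21 lower, 12 higher) and -0.11 for the 10 without it (6 lower, 4 higher). For CCAAT the medians were -0.15 in 31 members with it and -0.07 in 12 without it, for TTTAAA -0.18 in 8 with it and -0.08 in 35 without it, and for GGGCGGG -0.07 in 26 with it and -0.14 in 17 without it. None of these differences was tested.

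**Figure D2:**
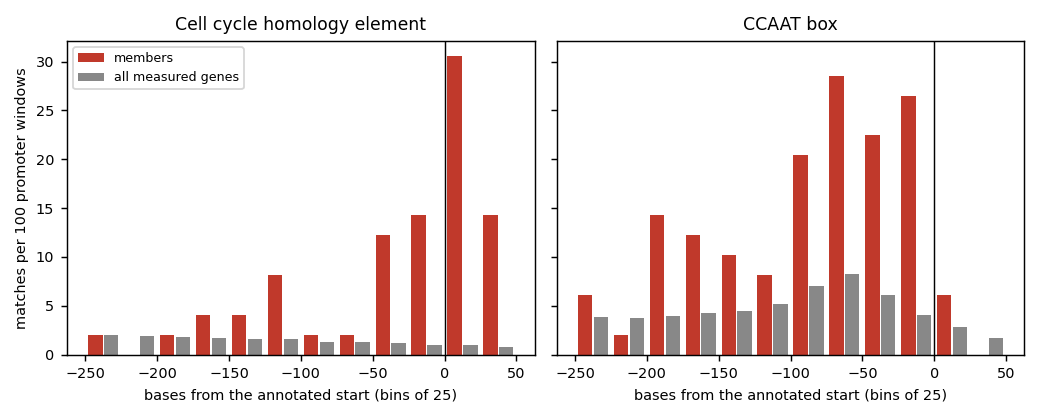
Position of the cell cycle homology element TTTGAA and of the CCAAT box in promoter windows, as matches per 100 windows in bins of 25 bases from the annotated start, for the members (red) and for all measured genes (grey). The TTTGAA matches of the members peak just after the start, at 30.6 per 100 windows in the first 25 bases, against 1.03 for all measured genes.

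Among the cyclins and their kinase, the driver of mitosis itself differed least. Cdk1 had 8.21, 8.37, 7.94 and 8.74 on KLF7 arrays 1 to 4 and 8.27, 8.14, 8.52 and 8.27 on control arrays 1 to 4. The arrays of the groups intermingled, with KLF7 array 4 the highest and KLF7 array 3 the lowest of the 8, and the difference was 0.02 log2 (95% interval -0.43 to 0.47). Ccna2, the cyclin of S phase and early mitosis, had 9.0, 9.35, 9.24 and 9.67 on KLF7 arrays 1 to 4 and 9.48, 9.36, 9.63 and 9.66 on control arrays 1 to 4. Its KLF7 arrays spread more widely and KLF7 array 1 was the lowest, with a difference of -0.22 log2 (interval -0.64 to 0.20). Ccnb2, a B-type cyclin, differed by -0.17 log2 (interval -0.66 to 0.32).

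Cdc25c encodes a phosphatase that removes the inhibitory phosphates of CDK1 at entry into mitosis, and it had the lowest difference of the members. Its levels were 6.52, 6.51, 6.70 and 6.42 on KLF7 arrays 1 to 4 and 7.01, 7.64, 7.20 and 6.50 on control arrays 1 to 4. Control arrays 1 to 3 stood above every KLF7 array, while control array 4 lay among the KLF7 arrays. The means were 6.54 ± 0.12 on KLF7 arrays and 7.09 ± 0.47 on control arrays (SD, n = 4 each), a difference of -0.55 log2 (SE 0.22, 1.46-fold lower), which did not pass (adjusted p 0.552, limma). The difference was -0.36 without control array 2 and -0.74 without control array 4.

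The mitotic kinases outside the checkpoint had overlapping groups. Plk1, the Polo-like kinase of spindle poles and kinetochores, had 7.87, 8.33, 8.05 and 8.65 on KLF7 arrays 1 to 4 and 8.22, 8.45, 8.50 and 8.73 on control arrays 1 to 4, a difference of -0.25 log2 (interval -0.71 to 0.22). Aurka, the Aurora kinase of the spindle poles, had 7.46, 8.14, 7.78 and 8.35 on KLF7 arrays 1 to 4 and 8.23, 7.92, 8.33 and 8.23 on control arrays 1 to 4. Its KLF7 arrays held both the lowest and the highest value, and the difference of -0.24 log2 (interval -0.73 to 0.24) was -0.08 without KLF7 array 1. Nek2, a kinase that parts the centrosomes, differed by 0.10 log2.

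Of the 5 spindle assembly checkpoint genes, 4 had a lower mean on KLF7 arrays and 1 a higher one. Ttk, which encodes the checkpoint kinase MPS1, had 6.37, 6.68, 6.54 and 6.91 on KLF7 arrays 1 to 4 and 6.75, 7.36, 7.15 and 6.66 on control arrays 1 to 4. The groups overlapped, and the difference was -0.35 log2 (SE 0.20, adjusted p 0.722, limma). Bub1, a checkpoint kinase of the kinetochore, had 8.31, 8.35, 7.84 and 7.98 on KLF7 arrays 1 to 4 and 8.01, 8.38, 8.64 and 8.15 on control arrays 1 to 4, a difference of -0.18 log2 (interval -0.62 to 0.27). Mad2l1, whose product MAD2 binds and blocks CDC20, had 8.30, 8.60, 8.19 and 8.89 on KLF7 arrays 1 to 4 and 8.20, 8.50, 8.52 and 8.49 on control arrays 1 to 4, with KLF7 arrays at both ends and a difference of 0.07 log2 (interval -0.37 to 0.51). Bub1b, which encodes the checkpoint protein BUBR1, differed by -0.16 log2 and Bub3, the partner of BUB1 and BUBR1, by -0.11 log2.

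The genes of anaphase onset differed in opposite directions. Cdc20, the activator of the anaphase-promoting complex, had 6.93, 7.94, 6.99 and 8.03 on KLF7 arrays 1 to 4 and 7.76, 7.83, 8.22 and 8.23 on control arrays 1 to 4. The KLF7 arrays split, with arrays 1 and 3 well below every control array and arrays 2 and 4 among them, and the difference of -0.54 log2 (SE 0.28, adjusted p 0.686, limma) was -0.36 without KLF7 array 1. Espl1, which encodes separase, the protease that cuts cohesin, had 6.73, 6.68, 6.68 and 6.72 on KLF7 arrays 1 to 4 and 7.15, 7.49, 7.02 and 6.85 on control arrays 1 to 4. All 4 KLF7 arrays lay close together, below all control arrays. The means were 6.70 ± 0.03 on KLF7 arrays and 7.13 ± 0.27 on control arrays (SD, n = 4 each), a difference of -0.42 log2 (SE 0.17, 1.34-fold lower, adjusted p 0.524, limma).

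Pttg1 encodes securin, the inhibitor that holds separase until anaphase, and its mean was higher on KLF7 arrays. Its levels were 8.12, 8.19, 7.52 and 8.84 on KLF7 arrays 1 to 4 and 7.36, 7.36, 7.63 and 8.19 on control arrays 1 to 4. KLF7 array 3 lay among the control arrays, control array 4 was level with KLF7 array 2, and the difference was 0.53 log2 (SE 0.29, 1.44-fold higher, adjusted p 0.706, limma), at 0.31 without KLF7 array 4 and 0.75 without KLF7 array 3. Ube2c, the ubiquitin-conjugating enzyme of the anaphase-promoting complex, differed by -0.03 log2 (interval -0.61 to 0.54). KLF7 array 1 was its lowest, at 8.12, against 8.79 to 9.29 on the other 7 arrays.

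The chromosomal passenger complex joins the kinase Aurora B to INCENP, survivin and borealin, and its 4 genes had no common direction (median -0.03, or 0.19 without KLF7 array 1 and -0.20 without KLF7 array 4). Birc5, which encodes survivin, had the highest difference of the members, with levels of 8.97, 9.49, 8.90 and 9.80 on KLF7 arrays 1 to 4 and 8.25, 8.69, 8.78 and 8.92 on control arrays 1 to 4. The groups overlapped by a narrow margin, since KLF7 array 3 (8.90) was just under control array 4 (8.92). The means were 9.29 ± 0.43 on KLF7 arrays and 8.66 ± 0.29 on control arrays (SD, n = 4 each), a difference of 0.63 log2 (SE 0.25, 1.55-fold higher), which did not pass (adjusted p 0.520, limma). Leaving out any 1 array kept it between 0.46 and 0.76.

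Incenp, the scaffold of the complex, had 8.13, 8.19, 8.0 and 8.11 on KLF7 arrays 1 to 4 and 8.32, 8.83, 8.38 and 8.26 on control arrays 1 to 4. All KLF7 arrays lay below all control arrays, with KLF7 array 2 and control array 4 the closest pair, and the difference was -0.34 log2 (SE 0.18, adjusted p 0.690, limma), or -0.21 without control array 2. Aurkb had 8.07, 8.86, 8.15 and 8.73 on KLF7 arrays 1 to 4 and 8.49, 8.64, 8.66 and 8.73 on control arrays 1 to 4, a difference of -0.18 log2 (interval -0.65 to 0.30), with KLF7 arrays 1 and 3 below all control arrays and KLF7 array 2 above them. Cdca8, which encodes borealin, differed by 0.12 log2 and had the widest spread among KLF7 arrays, 7.31 to 8.96, against 7.93 to 8.29 on control arrays.

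**Figure D3:**
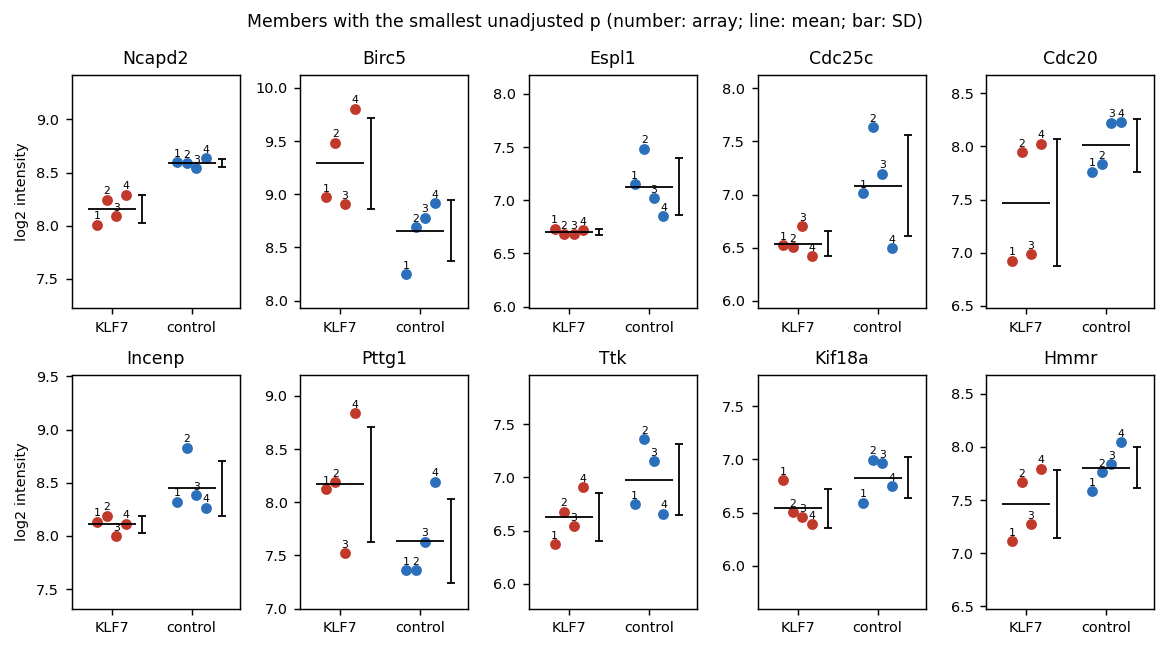
Log2 intensity of the 10 members with the smallest unadjusted p on each of the 8 arrays (KLF7 red, control blue, the number beside a point is the array's), with the mean as a line and the SD as a bar. Every axis spans 2.2 log2 units, and the KLF7 points lie wholly below the control points for Ncapd2, Espl1 and Incenp.

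Of the 9 centromere and kinetochore genes, 6 had a lower mean on KLF7 arrays and 3 a higher one, with a median of -0.08 (0.05 without KLF7 array 3), and none had an unadjusted p under 0.05. Cenpa, the histone H3 variant that marks centromeres, had 9.34, 8.56, 8.44 and 8.92 on KLF7 arrays 1 to 4 and 9.10, 8.88, 9.12 and 9.01 on control arrays 1 to 4. KLF7 arrays held its highest and its lowest values, and the difference was -0.21 log2 (interval -0.70 to 0.27). Ndc80, the microtubule-binding subunit of the outer kinetochore, had 7.95, 8.10, 7.71 and 8.37 on KLF7 arrays 1 to 4 and 7.41, 7.89, 7.89 and 8.07 on control arrays 1 to 4, a difference of 0.22 log2 (interval -0.25 to 0.68). Its partners in the same complex differed by -0.08 (Nuf2), -0.0036 (Spc24) and 0.0045 (Spc25) log2. The inner kinetochore genes Cenpk and Cenpn stood at -0.32 and -0.25, or -0.13 without KLF7 array 3 for Cenpk and -0.13 without control array 4 for Cenpn. The motor gene Cenpe was at -0.14 and Cenpf, a large protein of the outer kinetochore, at 0.01.

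Among the 7 spindle motors and assembly factors, 5 had a lower mean. Kif11, the kinesin that pushes spindle poles apart, had 8.86, 8.73, 8.76 and 8.93 on KLF7 arrays 1 to 4 and 8.76, 8.94, 8.85 and 8.66 on control arrays 1 to 4. Its arrays were close together in both groups (SD 0.09 on KLF7 arrays and 0.12 on control arrays), and its difference was 0.01 log2 (interval -0.34 to 0.37). Kif18a, the kinesin that dampens chromosome movements, had 6.81, 6.51, 6.46 and 6.39 on KLF7 arrays 1 to 4 and 6.59, 7.0, 6.97 and 6.75 on control arrays 1 to 4, a difference of -0.29 log2 (SE 0.16, adjusted p 0.726, limma), with KLF7 array 1 inside the range of the control arrays. Hmmr, a microtubule-associated protein of the spindle, had 7.11, 7.67, 7.27 and 7.80 on KLF7 arrays 1 to 4 and 7.58, 7.76, 7.84 and 8.04 on control arrays 1 to 4, a difference of -0.34 log2 (SE 0.20, adjusted p 0.742, limma). Tpx2, the activator of Aurora A, was at -0.24, the microtubule-depolymerising kinesin Kif2c at -0.23, Kif15 at -0.07 and the chromokinesin Kif4 at 0.005 log2.

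Of the 8 cytokinesis genes, 4 had a higher mean on KLF7 arrays and 4 a lower one, with a median of 0.05 log2. The median turned to -0.01 without control array 1 and -0.06 without control array 4. Prc1, which bundles the microtubules of the central spindle, had 7.92, 8.25, 7.98 and 8.40 on KLF7 arrays 1 to 4 and 7.56, 8.15, 7.94 and 7.96 on control arrays 1 to 4, a difference of 0.24 log2 (interval -0.19 to 0.66) with overlapping groups. Racgap1 and Kif23, the subunits of centralspindlin, were at 0.31 and 0.30, and Anln, the actin-binding protein of the cleavage furrow, at 0.19. Each leaned on single arrays: Racgap1 was at 0.12 without KLF7 array 4, Kif23 at 0.17 without KLF7 array 1 and Anln at 0.04 without control array 4. Ect2, the exchange factor that centralspindlin recruits, was at -0.18, Cep55, an organiser of abscission, at -0.20, and the kinesins Kif20a and Kif20b at -0.18 and -0.08. None of the 8 had an unadjusted p under 0.05.

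Condensin subunits and chromosome structure genes held the member with the smallest p. Ncapd2, a non-SMC subunit of condensin I, had 8.01, 8.24, 8.09 and 8.29 on KLF7 arrays 1 to 4 and 8.60, 8.59, 8.54 and 8.63 on control arrays 1 to 4. The control arrays lay close together, above all KLF7 arrays. The means were 8.16 ± 0.13 on KLF7 arrays and 8.59 ± 0.04 on control arrays (SD, n = 4 each), a difference of -0.43 log2 (SE 0.16, 1.35-fold lower), which did not pass (adjusted p 0.481, limma), and it stayed between -0.48 and -0.38 as arrays were dropped singly. The other condensin I genes stood closer to 0: Ncapg at -0.15, Ncaph at -0.13, and the ATPase subunits Smc2 at 0.07 and Smc4 at 0.03 log2.

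Top2a, the topoisomerase that untangles chromosomes, had 9.69, 9.81, 9.53 and 9.68 on KLF7 arrays 1 to 4 and 9.92, 9.98, 10.02 and 9.83 on control arrays 1 to 4. The KLF7 arrays lay below the control arrays, though KLF7 array 2 and control array 4 all but met, and the difference was -0.26 log2 (SE 0.16, adjusted p 0.766, limma). It was the 1 member with a second probe set, which was dimmer (5.26 ± 0.81 on KLF7 arrays and 6.31 ± 0.59 on control arrays, SD, n = 4 each) and had a larger difference of -1.06 (SE 0.40). On that probe set the groups overlapped, with KLF7 array 1 (6.39) above control arrays 3 (6.29) and 4 (5.51). Mki67, which encodes the proliferation marker Ki-67, had 9.64, 9.37, 9.71 and 9.46 on KLF7 arrays 1 to 4 and 9.50, 9.84, 9.81 and 9.28 on control arrays 1 to 4. The groups intermingled, and the difference was -0.06 log2 (interval -0.48 to 0.36).

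**Figure D4:**
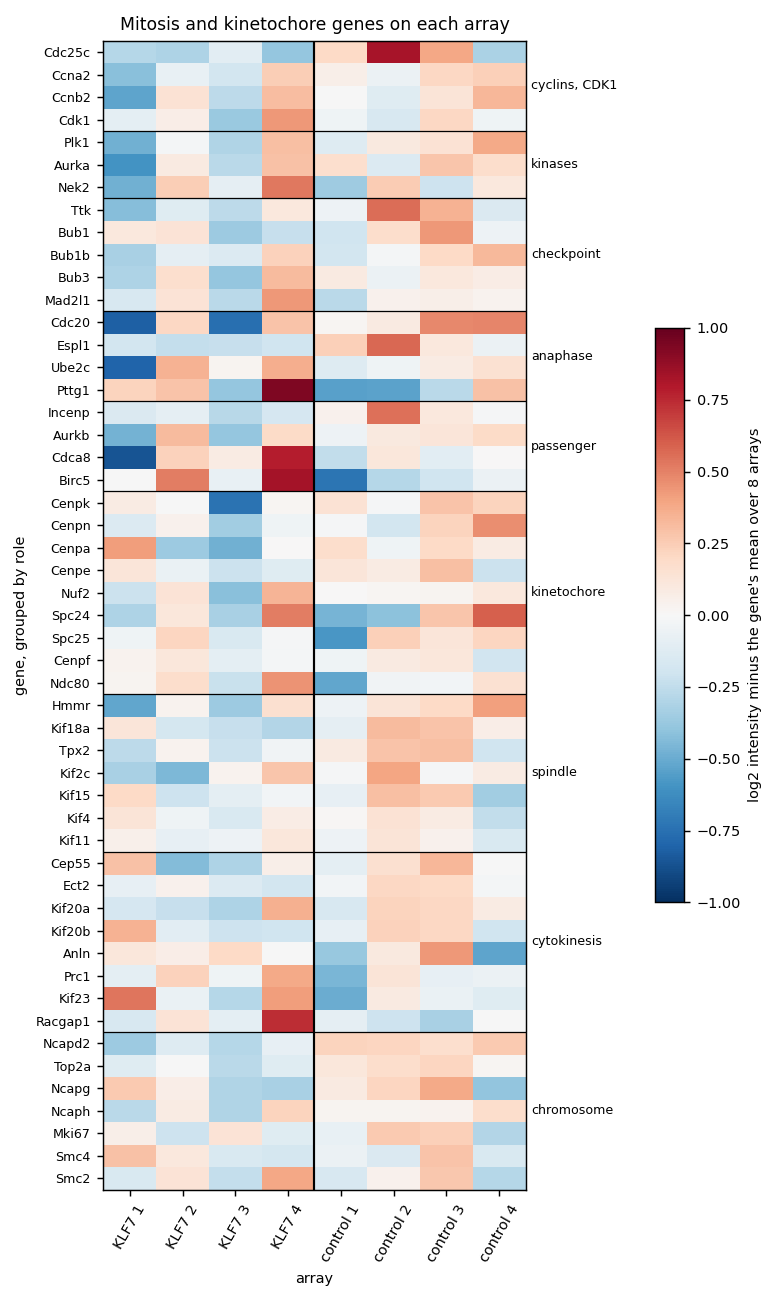
Log2 intensity of each of the 51 members on each array, as its deviation from that gene's mean over the 8 arrays (red above, blue below), grouped by role. KLF7 array 3 is mostly blue, KLF7 array 4 and control array 3 mostly red.

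The level of the mitotic genes spread more between arrays of a group than between the group means. The mean over the 51 members was 7.87, 8.04, 7.79 and 8.18 on KLF7 arrays 1 to 4 and 7.92, 8.12, 8.17 and 8.05 on control arrays 1 to 4. Group means were 7.97 ± 0.17 on KLF7 arrays and 8.06 ± 0.11 on control arrays (SD, n = 4 each). On KLF7 array 3 only 6 of 51 members (11.8%) lay above their own KLF7 mean, and on KLF7 array 4 there were 39 (76.5%). On control array 1 there were 9 members above their own control mean (17.6%), and on control array 3 there were 41 (80.4%). Over all genes these shares lay between 48.5% and 52.8% on the 8 arrays. Many members, but not all, moved up and down together between arrays of a group. The deviations of 31 of 51 correlated above 0.5 with the mean of the other members, and those of 4 correlated negatively. KLF7 arrays 1 and 3 were each the lowest of the 8 arrays for 14 members (27.5%), beside 15.2% and 11.4% of all genes. KLF7 array 4 was the highest for 17 members (33.3%, beside 16.8% of all genes). Leaving out a single array moved the difference by more than 1.5 times, or turned it, in 44 of 51 members. The other 7 were Birc5, Ect2, Espl1, Kif18a, Ncapd2, Top2a and Tpx2. A small difference is easily moved that far, and the same count was not made over all genes.

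Same-numbered arrays were also set against each other, KLF7 minus control, as a description. The KLF7 array was lower for 28, 29, 45 and 20 of the 51 members at numbers 1 to 4, with median differences of -0.06, -0.03, -0.41 and 0.09 log2. Number 3 thus held the most members with a lower value, and at number 4 most were higher. At all 4 numbers 9 members were lower (Ncapd2, Espl1, Cdc25c, Incenp, Hmmr, Top2a, Plk1, Ect2 and Bub1b) and 2 were higher (Birc5 and Prc1). The matching shares over all genes were not counted, and none of these counts was tested.

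Other genes of the same processes were counted from lists written for this purpose. Across the 7 lists, 0 genes passed the adjusted test. Their counts at an unadjusted p under 0.05 stand beside 3.56% of all genes with a lower mean and 4.65% with a higher one. Of 29 other kinetochore and centromere genes, 16 had a lower mean and 13 a higher one (median -0.05), and none had an unadjusted p under 0.05. Cenpo and Cenph, of the inner kinetochore, stood at -0.47 (SE 0.23) and -0.59 (SE 0.32). Of 27 other spindle and cytokinesis genes, 16 had a lower mean (median -0.05), and 4 of these had an unadjusted p under 0.05, led by Ckap2, a microtubule-associated protein, at -0.48 (SE 0.14), and Bora, the cofactor of Aurora A in activating Polo-like kinase, at -0.72 (SE 0.23).

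Of the 17 subunits and partners of the anaphase-promoting complex, 11 had a lower mean (median -0.06). The scaffold gene Anapc2 was the 1 with an unadjusted p under 0.05, with a higher mean of 7.30 ± 0.24 on KLF7 arrays and 6.59 ± 0.28 on control arrays (SD, n = 4 each), and Cdc26 was at -0.47 (SE 0.25). The 16 cohesin and other condensin genes had a median of 0.01. At an unadjusted p under 0.05 stood 1 with a higher mean, the cohesin acetyltransferase gene Esco1 at 0.58 (SE 0.21). The 1 with a lower mean was the condensin II gene Ncapd3 at -0.42 (SE 0.18). Of 11 regulators of mitotic entry 7 had a lower mean (median -0.05). An unadjusted p under 0.05 was found for 2 with a lower mean and 1 with a higher one. Cdc25a, a CDK-activating phosphatase gene, stood at -0.49 (SE 0.16) and Mastl, which encodes the Greatwall kinase, at 0.57 (SE 0.21).

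The 16 transcriptional regulators of mitotic genes had a median of -0.05, with 9 lower in the mean. Of these, 3 had an unadjusted p under 0.05, all with a lower mean. Tfdp1, the dimer partner of E2F factors, stood at 8.63 ± 0.28 on KLF7 arrays and 9.32 ± 0.19 on control arrays (SD, n = 4 each; difference -0.69, SE 0.20, adjusted p 0.373, limma), with no overlap between the groups, and E2f4, the E2F of the DREAM complex, at -0.48 (SE 0.20). DNA replication and S phase genes, transcribed earlier in the cycle, had a lower mean in 28 of 35, with a median of -0.20. The licensing factor gene Cdc6 (-0.71, SE 0.18) and the helicase gene Mcm7 (-0.54, SE 0.21) were the 2 with an unadjusted p under 0.05. The median was -0.07 without KLF7 array 3, -0.08 without control array 4, -0.13 without KLF7 array 1 and -0.35 without KLF7 array 4, and without control array 4 the count of lower means was 20.

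The levels of these lists varied between arrays too. The mean of the replication genes was 7.12, 7.44, 7.09 and 7.74 on KLF7 arrays 1 to 4 and 7.44, 7.34, 7.47 and 7.88 on control arrays 1 to 4, so that KLF7 arrays 1 and 3 were the lowest and the arrays numbered 4 the highest in their groups. Markers of other blood cells also varied. The neutrophil list had its highest means on the arrays numbered 3 (9.83 on the KLF7 array and 9.36 on the control array). Its lowest were on those numbered 4 (6.91 and 6.69). Not every neutrophil marker went that way. Ly6g was lowest of the control arrays on number 3 (4.03), and it was not lowest on either array numbered 4. Camp was at 6.03 on control array 4, against 5.87 on control arrays 1 and 2. The megakaryocyte and mast cell list also had its lowest means on those numbered 4 (8.30 and 8.08, against 9.36 to 10.54 on the other arrays). Its markers did not all go that way. Cpa3, Mcpt8 and Fcer1a were lowest in both groups on the arrays numbered 4. Pf4 was instead highest there, at 11.18 on the KLF7 array and 11.36 on the control array, against 8.90 to 10.67 on the other arrays. Itga2b, at 8.46 and 8.79 there, was not the lowest in either group. The markers of monocytes, macrophages and dendritic cells had higher means on KLF7 arrays, as given above. The part of these cell types in the levels of the mitotic genes was not tested.

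**Figure D5:**
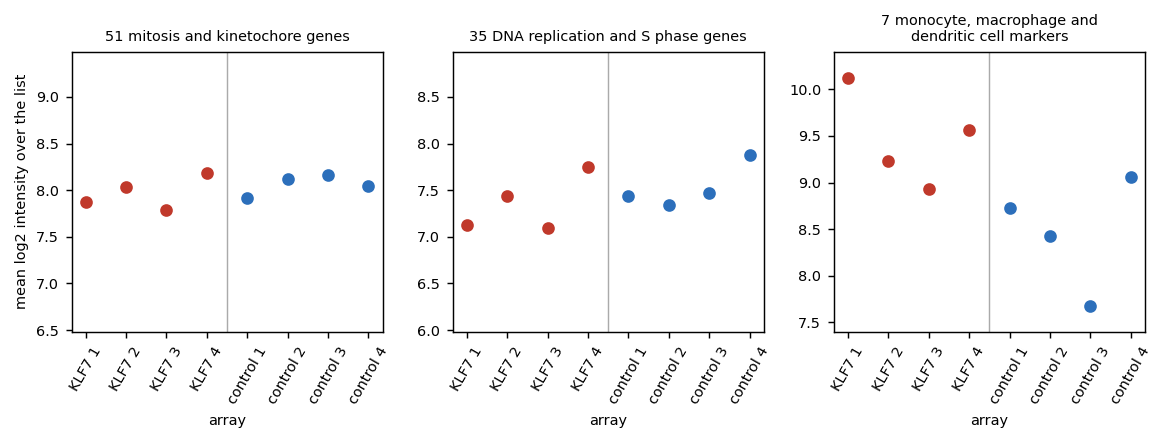
Mean log2 intensity over the 51 members, the 35 DNA replication and S phase genes and the 7 monocyte, macrophage and dendritic cell markers on each array (KLF7 red, control blue), each axis spanning 3 log2 units. The members range from 7.79 to 8.18. The monocyte, macrophage and dendritic cell markers range from 8.93 to 10.13 on KLF7 arrays and from 7.68 to 9.05 on control arrays. The groups overlap in every panel.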

How the data were processed

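The series holds 8 single-colour arrays, 4 labelled KLF7 and 4 labelled control. The deposited values are probe set intensities on a linear scale, which came, per the submitters' processing notes, from Affymetrix Expression Console with the RMA method. The program's version and any later step are not stated there. RMA corrects background, normalises between arrays and summarises probes, and it can compress the differences of dim genes.

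Intensities were log2 transformed. Of 35554 probe sets, 21789 carried 1 gene symbol, 1621 several and 12144 none. Keeping the brightest probe set per gene gave 19938 genes, dim ones included. All 51 measured members matched RefSeq (GRCm38) by Entrez number. Group was the only term in limma 3.58.1 (R 4.3.3; lmFit, eBayes with trend), two-sided, with Benjamini-Hochberg adjustment over 19938 genes and a threshold of 0.05. The fit was tested on simulated data. Promoters came from RefSeq (GRCm38.p6). Figures used matplotlib 3.10.9.

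The members and lists were chosen with earlier results of these data known. Every member could be named, values on every array were given for 14 landmark members and for the 10 with the smallest unadjusted p, and of each other list the 2 genes with the smallest p were named. Alternatives left out arrays, added a replicate block or a term for the arrays numbered 4, normalised again, weighted arrays, left out dim genes or averaged probe sets. No label ties same-numbered arrays together and they did not all deviate together, so the block stayed an alternative.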

Additional observations from a re-analysis of the deposited data

Results flagged for a closer look

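In 4 of 104 groups of 4 arrays (51 members and Klf7 in each group), the highest or lowest array stood far from the other 3 (Dixon's ratio of the gap to the range, past its 95% critical value). Chance flags about 1 in 20 such groups. Cenpk was at 6.16 on KLF7 array 3, against 6.89 to 6.98 on the other KLF7 arrays. Mad2l1 was at 8.20 on control array 1, against 8.49 to 8.52 on the other control arrays. Spc25 was at 5.88 on control array 1, against 6.59 to 6.71. Ncaph was at 7.69 on control array 4, against 7.54 to 7.55.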

How the results depend on the processing

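Of 17 alternatives, 0 brought a member past the test in limma, and the smallest adjusted p of a member in any was 0.157. Over all genes, 0 passed with all arrays, 0 to 1 as arrays were dropped singly, and 26 with a term for the arrays numbered 4. With the replicate block, 90 genes passed. Same-numbered arrays had correlations of their deviations from the group means of 0.35, -0.13, 0.36 and 0.70, and 6 of 8 arrays correlated best with their own number, a hint of pairing that arrays numbered 2 did not share. No label ties the numbers to a shared batch, so the block was kept as an alternative. The cause of these counts was not tested. Members with an unadjusted p under 0.05 numbered 1 to 6 as arrays were dropped singly, and 0 without both arrays numbered 2, which leaves fewer arrays; this alternative was chosen after seeing the data. The median of the members stayed below 0 in all 17 alternatives.

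Of the 51 differences, 34 kept their sign in every alternative. Without both arrays numbered 4, Cdk1 was at -0.13, Nek2 at -0.00157, Mad2l1 at -0.041, Cdca8 at -0.10, Cenpf at -0.036, Spc24 at 0.023, Kif11 at -0.070, Kif4 at -0.10 and Smc2 at -0.14 log2. With quantile normalisation, Cdk1 was at -0.038, Spc24 at 0.0051, Kif11 at -0.075, Kif4 at -0.011 and Smc4 at -0.055. With array weights, Cdk1 was at -0.023, Ube2c at 0.082, Spc24 at 0.064, Kif11 at -0.049 and Kif4 at -0.065. Without both arrays numbered 2, Cdk1 was at -0.054, Kif15 at 0.080, Kif20b at 0.0066, Mki67 at 0.070 and Smc4 at -0.037. With arrays dropped singly, the ranges were -0.12 to 0.14 for Cdk1, -0.053 to 0.28 for Nek2, -0.23 to 0.0057 for Bub3, -0.063 to 0.17 for Mad2l1, -0.16 to 0.23 for Ube2c, -0.12 to 0.42 for Cdca8, -0.046 to 0.055 for Cenpf, -0.21 to 0.047 for Nuf2 and -0.18 to 0.20 for Spc24. They were -0.19 to 0.085 for Spc25, -0.034 to 0.061 for Kif11, -0.19 to 0.021 for Kif15, -0.077 to 0.056 for Kif4, -0.17 to 0.013 for Mki67, -0.051 to 0.17 for Smc2 and -0.057 to 0.13 for Smc4. With all arrays the 17 genes that turned lay between -0.11 (Bub3) and 0.12 (Cdca8), and the cause of each turn was not tested. The mean of both Top2a probe sets differed by -0.66. With 4 arrays a group the median 95% interval of the members reached 0.44 log2 to either side.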
